A study of Mus musculus with 24 samples.

Results

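The 9 genes described here encode enzymes that together do most of the work of turning squalene, a linear chain, into cholesterol, a sterol of fused rings: Sqle, Lss, Cyp51, Tm7sf2, Msmo1, Nsdhl, Hsd17b7, Sc5d and Dhcr7. They were chosen by symbol from the deposited count table, and all 9 are among its 13686 genes and among the 11971 that entered the tests. The samples are livers of male wild-type (WT) C57BL/6 mice, a common inbred laboratory strain, fed for 6 weeks on 1 of 3 diets rich in an oil, which were cottonseed (CSO), olive (OO) and safflower (SFO), or on chow. The table holds 6 CSO, 6 OO, 5 SFO and 6 chow libraries, and the submitters left out SFO_4 as an extreme outlier with possible contamination. The age of the mice and the composition of the diets are not given in the sources used here, so the oil itself and anything else that differs between an oil diet and chow cannot be told apart. The labels do not say that each library is a separate animal, and p-values measure the spread between these libraries, which may be technical.

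In the liver, cholesterol is made from acetyl-CoA by way of mevalonate and squalene. Squalene is then oxidised, closed into lanosterol, and trimmed of methyl groups and reduced in a series of steps on the membrane of the endoplasmic reticulum. The genes of the pathway are known targets of the transcription factor SREBP-2, which is released from that membrane when its sterol content falls. SREBP-2 binds promoters beside the general factors NF-Y, which recognises CCAAT, and Sp1, which recognises GC-rich boxes.

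RNA was read with QuantSeq, which makes tags at the 3′ end of transcripts, so a level in CPM, counts scaled to a common library size, was not divided by gene length. Library totals ran between 5428649 and 14930305 counts. Markers of hepatocytes, with 8 of 8 genes in the table, summed to 99087 to 144083 CPM in CSO, 129703 to 173256 CPM in OO, 107140 to 156195 CPM in SFO and 106463 to 138833 CPM in chow livers. Skeletal muscle markers, with 12 of 12 genes in the table, summed to 4.15 to 1233 CPM in CSO, 1.56 to 36 CPM in OO, 5.01 to 77.0 CPM in SFO and 9.37 to 2775 CPM in chow livers, and Pvalb was at 0 in OO and SFO. The muscle actin Acta1 was over 100 CPM in 4 libraries (CSO replicate 1 and chow replicates 3, 4 and 5), and the results are also given without those 4. A score of circadian clock genes (the mean log2 CPM of Per2, Per3, Tef, Dbp and Ciart minus that of Clock, Arntl, Npas2 and Nfil3) averaged 3.92 ± 0.64 in CSO, 1.21 ± 1.54 in OO, 1.71 ± 2.37 in SFO and 1.48 ± 1.76 in chow livers (SD, n = 6, 6, 5 and 6). In bulk tissue, fewer cells of a type and less RNA per cell cannot be told apart.

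The promoters of 4 of the enzymes that rose in at least 1 oil diet, each with a single annotated start, are printed here because they carry the NF-Y and Sp1 boxes in different arrangements. The sequences are RefSeq's, of build GRCm38.p6, run from 250 bases before the start of the gene to 50 after it, and are written 5′ to 3′ on the strand of the gene. Capitals mark CCAAT and GGGCGG, or their reverse complements ATTGG and CCGCCC.

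Msmo1, chr8:64733529-64733828, minus strand: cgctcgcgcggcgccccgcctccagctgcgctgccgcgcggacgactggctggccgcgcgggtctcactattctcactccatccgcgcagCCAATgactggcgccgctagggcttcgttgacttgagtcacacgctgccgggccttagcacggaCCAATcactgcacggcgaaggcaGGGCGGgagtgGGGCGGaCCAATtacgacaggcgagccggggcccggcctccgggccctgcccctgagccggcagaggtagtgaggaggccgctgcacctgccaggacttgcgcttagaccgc

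Lss, chr10:76531355-76531654, plus strand: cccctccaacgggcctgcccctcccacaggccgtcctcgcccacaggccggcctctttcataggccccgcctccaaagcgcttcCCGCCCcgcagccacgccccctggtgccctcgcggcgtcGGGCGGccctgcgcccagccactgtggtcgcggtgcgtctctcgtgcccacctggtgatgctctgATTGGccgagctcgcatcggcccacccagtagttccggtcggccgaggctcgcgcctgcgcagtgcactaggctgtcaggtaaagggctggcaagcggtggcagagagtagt

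Sc5d, chr9:42264251-42264550, minus strand: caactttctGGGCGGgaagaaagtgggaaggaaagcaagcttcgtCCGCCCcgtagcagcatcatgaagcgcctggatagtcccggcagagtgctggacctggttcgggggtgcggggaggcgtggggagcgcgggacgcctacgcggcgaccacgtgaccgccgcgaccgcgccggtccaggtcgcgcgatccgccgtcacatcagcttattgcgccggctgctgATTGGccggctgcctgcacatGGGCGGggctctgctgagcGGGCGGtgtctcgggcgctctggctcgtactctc

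Cyp51, chr5:4104648-4104947, minus strand: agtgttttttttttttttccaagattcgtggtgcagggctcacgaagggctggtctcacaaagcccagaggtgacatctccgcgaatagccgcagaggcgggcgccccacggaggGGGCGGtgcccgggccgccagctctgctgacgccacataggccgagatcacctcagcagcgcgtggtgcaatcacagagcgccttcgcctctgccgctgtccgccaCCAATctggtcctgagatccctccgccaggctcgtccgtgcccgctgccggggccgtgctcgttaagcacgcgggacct

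RefSeq's table held 10 promoter windows for 8 of the 9 genes, with 3 for Dhcr7 and none for Sqle. The letters CCAAT were found, on either strand, in at least 1 window of 8 of 8 genes, against 42.2% of the 10864 genes of the count table that have a window. The letters GGGCGG were likewise found in 8 of 8 genes, against 65.8%, and both were found in the same window in 8 of 8 genes, against 25.8%. The Msmo1 window holds CCAAT 3 times, 160, 96 and 55 bases before the start, and GGGCGG 73 and 62 bases before it. The Cyp51 window holds each box a single time, with CCAAT 29 bases and GGGCGG 135 bases before the start. The sterol regulatory element, written TCACNCCAC and searched on both strands, matched 0 of the 10 windows, and 1.24% of all 32851 windows of 300 bases held it. Other spellings of that element were not searched, and the matches are a description of letters only.

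Summed over the 9 enzymes, transcripts were more abundant in every oil-fed liver than in any chow-fed liver. The sum averaged 2097 ± 281 CPM in CSO, 2312 ± 249 CPM in OO, 2033 ± 507 CPM in SFO and 1443 ± 95.8 CPM in chow livers (SD, n = 6, 6, 5 and 6). The lowest of the 17 oil libraries stood at 1644 CPM and the highest of the 6 chow libraries at 1565 CPM. As a share of each library's counts with no scaling, the lowest oil library held 0.169% and the highest chow library 0.165%. The sum does not weigh the 9 alike, since Sc5d alone averaged 678 CPM in CSO, 947 in OO, 617 in SFO and 554 in chow livers. No single member separated all 17 oil libraries from all chow libraries, and 0.0835% of tested genes did so upward. That share is of single genes, not of sums of 9. The 4 libraries with muscle RNA were at 1673 CPM in CSO replicate 1 and at 1441, 1343 and 1381 CPM in chow replicates 3, 4 and 5. The highest sum, 2908 CPM, was that of SFO replicate 6, which is also the shallowest library, and the other 4 SFO libraries lay between 1644 and 2013 CPM.

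**Figure D1:**
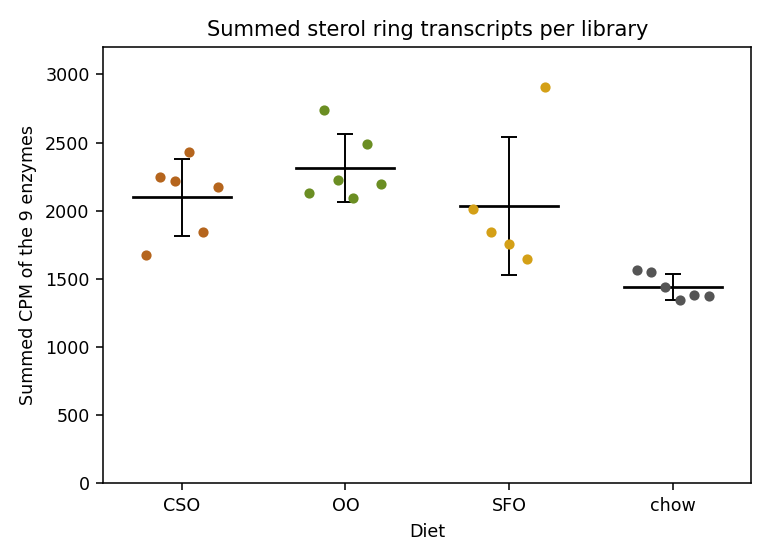
Summed CPM of the 9 enzymes (vertical axis, linear, from 0) for each library (points), by diet, with the mean (bar) and SD. The 17 oil libraries lie at 1644 CPM or more and the 6 chow libraries at 1565 CPM or less.

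Diets were compared by edgeR's quasi-likelihood F test with TMM scaling, with p-values adjusted by Benjamini-Hochberg over all 11971 tested genes and a threshold of 0.05. A log2 fold change (log2FC) is that of the first diet over the second. All 9 enzymes had a positive log2FC over chow in CSO, in OO and in SFO. Of all tested genes 48.0%, 54.4% and 51.1% had a positive one. Of the 2231 genes whose mean log2 CPM reached 6, it was 55.3%, 73.4% and 53.2%. The 3 comparisons use the same 6 chow libraries, so their directions are not independent of each other. In CSO livers 1 of 9 enzymes rose, where 0.209% of all tested genes rose. In OO livers 5 of 9 rose, where 1.72% did so, and in SFO livers 3 of 9 rose, where 0.493% did so. With library totals in place of TMM, the median log2FC of all genes in OO shifted by -0.18, all called genes split into 62 higher and 162 lower against 206 and 110 with TMM, and 3 enzymes (Lss, Sc5d and Sqle) rose. No enzyme fell, where 0.200%, 0.919% and 0.342% of all tested genes fell in CSO, OO and SFO. All 9 are well expressed, and among the 2231 tested genes whose mean log2 CPM reached 6, a level that all 9 pass, 1.08% rose in CSO, 7.44% in OO and 2.06% in SFO.

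The median log2FC of the 9 enzymes was 0.66 in CSO, 0.71 in OO and 0.65 in SFO over chow. The medians of all tested genes were -0.02, 0.07 and 0.01, and those of the 2231 well expressed genes 0.03, 0.20 and 0.02. Without SFO replicate 6, the shallowest library, the median of the 9 in SFO was 0.49. Then 8 of 9 log2FC were positive and only Sqle passed the threshold. At an unadjusted p under 0.05, 8 of 9 enzymes were higher in CSO, 7 of 9 in OO and 6 of 9 in SFO. The shares were 2.98%, 9.68% and 3.98% of all tested genes, and 8.92%, 27.1% and 9.01% of the 2231 well expressed genes. Without the 4 libraries with muscle RNA all 9 log2FC stayed positive in each oil diet, with medians of 0.64, 0.64 and 0.65, and the enzymes that passed the threshold numbered 0 in CSO, 0 in OO and 1 (Sqle) in SFO. That comparison has only 3 chow libraries, and the genes that passed it in all numbered 14 in CSO, 26 in OO and 34 in SFO, against 49, 316 and 100 with all libraries.

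**Figure D2:**
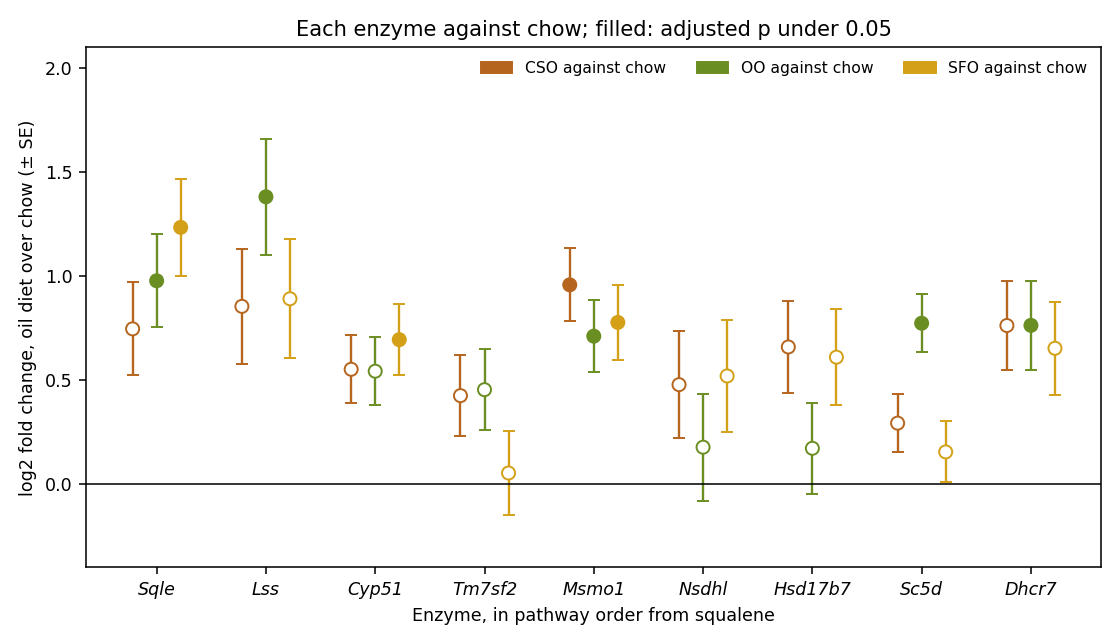
Log2 fold change over chow with its standard error (vertical axis) for each of the 9 enzymes in pathway order (horizontal axis), for CSO, OO and SFO. Filled points have an adjusted p under 0.05, and all 27 points lie above 0, with Msmo1 filled in all 3 diets.

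Msmo1, the methylsterol monooxygenase that begins the removal of a methyl group from the sterol ring, was the only enzyme of the 9 that rose in all 3 oil diets. It stood between 267 and 357 CPM in CSO livers (median 328), and between 166 and 349 CPM in OO livers (median 258). The 5 SFO livers had 339, 279, 258, 159 and 364 CPM, and the 6 chow livers lay between 139.7 and 210.2 CPM (median 156). Every CSO liver was above every chow liver, a separation upward that 0.860% of all tested genes showed, while OO replicate 3 and SFO replicate 5 lay within the chow range. The log2FC over chow was 0.96 ± 0.18 in CSO (SE, edgeR adjusted p = 0.00152), 0.71 ± 0.17 in OO (adjusted p = 0.019) and 0.78 ± 0.18 in SFO (adjusted p = 0.0174). The rise in CSO and in OO held with any 1 library left out. The rise in SFO did not pass without chow replicate 1 or 6 or SFO replicate 1 or 6 (highest adjusted p = 0.0955). In CSO it was lost with the clock score as a covariate (log2FC 0.75, adjusted p = 0.134) and without the libraries with muscle RNA (0.98, adjusted p = 0.144). In OO it was lost with library totals (0.54, adjusted p = 0.0969), in a fit of OO and chow alone (0.70, adjusted p = 0.0595) and without the libraries with muscle RNA (0.70, adjusted p = 0.237). In SFO it was lost without those libraries (0.78, adjusted p = 0.358).

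Sqle, squalene epoxidase, opens the sequence and is known as a control point of the pathway. Its level was between 77.9 and 165 CPM in CSO livers (median 151) and between 85.9 and 226 CPM in OO livers (median 162). The SFO livers had 163, 181, 130.0, 191 and 293 CPM, against 54.2 to 95.0 CPM in chow livers (median 84.2). All 5 SFO livers were above all 6 chow livers, which was so upward for 0.677% of all tested genes, and 1 CSO and 1 OO liver lay within the chow range. The log2FC over chow was 1.23 ± 0.23 in SFO, a 2.35-fold higher level (SE, edgeR adjusted p = 0.00116). It was 0.98 ± 0.22 in OO (adjusted p = 0.0112), and 0.75 ± 0.22 in CSO, which did not pass (adjusted p = 0.192). Chow replicate 6 was low for Sqle at 54.2 CPM, with the other chow livers between 82.5 and 95.0 CPM. The rises in SFO and OO held with any 1 library left out. Without the libraries with muscle RNA the rise in SFO also held (log2FC 1.35, adjusted p = 0.0363). That in OO did not pass without them (1.08, adjusted p = 0.122).

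Lss, lanosterol synthase, folds epoxidised squalene into the first ring sterol and had the lowest mean of the 9 in CSO, SFO and chow livers, while in OO livers Hsd17b7 did. It stood between 41.3 and 99.5 CPM in CSO livers (median 77.2), and between 61.4 and 226 CPM in OO livers (median 87.9). The SFO livers had 69.6, 62.5, 70.8, 76.5 and 91.9 CPM, and the chow livers lay between 29.4 and 63.2 CPM (median 37.2). The groups overlapped through 1 liver each of OO and SFO and 2 of CSO that were below the highest chow liver. The log2FC over chow was 1.38 ± 0.28 in OO (SE, edgeR adjusted p = 0.00306), which passed, against 0.85 ± 0.28 in CSO (adjusted p = 0.276) and 0.89 ± 0.29 in SFO (adjusted p = 0.199). OO replicate 2 stood apart at 226 CPM, with the other OO livers between 61.4 and 93.0 CPM. Without it the log2FC in OO was 0.999 and still passed (adjusted p = 0.0272). The rise in OO did not pass without the libraries with muscle RNA (log2FC 1.18, adjusted p = 0.184). A transcript on the opposite strand, 4930483K19Rik, overlaps Lss by 11268 bases in the GENCODE annotation, and whether counting used the strand is not given.

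Cyp51, the cytochrome P450 that removes the first methyl group of lanosterol, rose in SFO. Its level was between 243 and 382 CPM in CSO (median 293) and between 262 and 346 CPM in OO livers (median 301). The SFO livers had 339, 256, 240.3, 333 and 519 CPM, and the chow livers lay between 164 and 267 CPM (median 203). Each oil group overlapped chow, because chow replicate 1 reached 267 CPM, and all 17 oil livers were above the chow mean of 208 CPM. The log2FC was 0.69 ± 0.17 in SFO (SE, edgeR adjusted p = 0.0288), 0.54 ± 0.16 in OO (adjusted p = 0.0566) and 0.55 ± 0.16 in CSO (adjusted p = 0.183). The call in SFO was near the threshold. It did not pass without chow replicate 2, 3, 5 or 6 or SFO replicate 1, 5 or 6, with adjusted p up to 0.240. The log2FC in SFO lay between 0.49 and 0.79 with any 1 library left out. Cyp51 shares 166 bases with Akap9 on the opposite strand, whose tags cannot be told apart if counting did not use the strand, and Akap9 was counted at 47.7 to 136 CPM.

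Tm7sf2, the reductase that acts on the product of Cyp51, passed the threshold in no diet and had the smallest log2FC of the 9 in SFO. It averaged 184 ± 36.5 CPM in CSO, 187 ± 64.8 CPM in OO, 142 ± 38.1 CPM in SFO and 137 ± 10.5 CPM in chow livers (SD, n = 6, 6, 5 and 6). In CSO livers 5 of 6 were above every chow liver, in OO 4 of 6 and in SFO 1 of 5. The log2FC was 0.43 ± 0.19 in CSO (SE, edgeR adjusted p = 0.856), 0.45 ± 0.19 in OO (adjusted p = 0.209) and 0.05 ± 0.20 in SFO (adjusted p = 0.99). Tm7sf2 shares 532 bases with Vps51 on the same strand, and Vps51 was counted at 8.14 to 46.1 CPM.

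Nsdhl, the dehydrogenase that acts after Msmo1, and Hsd17b7, the ketoreductase that ends each round of demethylation, did not pass in any diet. Nsdhl averaged 123 ± 27.4 CPM in CSO, 99.7 ± 30.9 CPM in OO, 127 ± 78.3 CPM in SFO and 88.2 ± 22.5 CPM in chow livers (SD, n = 6, 6, 5 and 6). Its spread in SFO comes from SFO replicate 6 at 258 CPM, and the log2FC in SFO was 0.52 ± 0.27 (SE, edgeR adjusted p = 0.676) with that library and 0.09 without it. Hsd17b7 had between 111 and 157 CPM in CSO livers (median 124) and between 48.5 and 105 CPM in chow livers (median 80.1), with no overlap, as 0.860% of all tested genes had upward. Its log2FC in CSO was 0.66 ± 0.22 (SE, edgeR adjusted p = 0.329). In OO, Hsd17b7 averaged 92.3 ± 30.8 CPM, with a log2FC of 0.17 ± 0.22 (adjusted p = 0.768), and in SFO 125 ± 29.7 CPM, with 0.61 ± 0.23 (adjusted p = 0.361).

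Sc5d, the desaturase that places a second double bond in the ring, was the most abundant of the 9 in every diet and the only one that differed between 2 oils. It stood between 496 and 815 CPM in CSO livers (median 683) and between 794 and 1135 CPM in OO livers (median 933). The SFO livers had 489, 628, 665, 421 and 881 CPM, and the chow livers lay between 464 and 636 CPM (median 557). Every OO liver was above every chow liver, which 0.977% of all tested genes showed upward, whereas 2 of 5 SFO livers and 5 of 6 CSO livers were. The log2FC over chow was 0.77 ± 0.14 in OO (SE, edgeR adjusted p = 0.000828), 0.29 ± 0.14 in CSO (adjusted p = 0.921) and 0.15 ± 0.15 in SFO (adjusted p = 0.926). The rise in OO held with any 1 library left out, and did not pass without the libraries with muscle RNA (log2FC 0.64, adjusted p = 0.114).

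Dhcr7, the reductase that makes cholesterol from its immediate precursor, rose in OO. Its level was between 97.6 and 187 CPM in CSO (median 151) and between 84.6 and 229 CPM in OO livers (median 139.9). The SFO livers had 142, 101, 113, 144 and 201 CPM, and the chow livers lay between 73.9 and 106 CPM (median 89.2). In CSO 5 of 6 livers were above every chow liver, and in OO and SFO 4 livers each. The log2FC was 0.76 ± 0.21 in OO (SE, edgeR adjusted p = 0.04), 0.76 ± 0.21 in CSO (adjusted p = 0.119) and 0.65 ± 0.22 in SFO (adjusted p = 0.254). The values in CSO and OO are of the same size, and the call in OO was lost without chow replicate 1, 2, 3, 4 or 5 or OO replicate 1 or 5 (highest adjusted p = 0.0992).

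**Figure D3:**
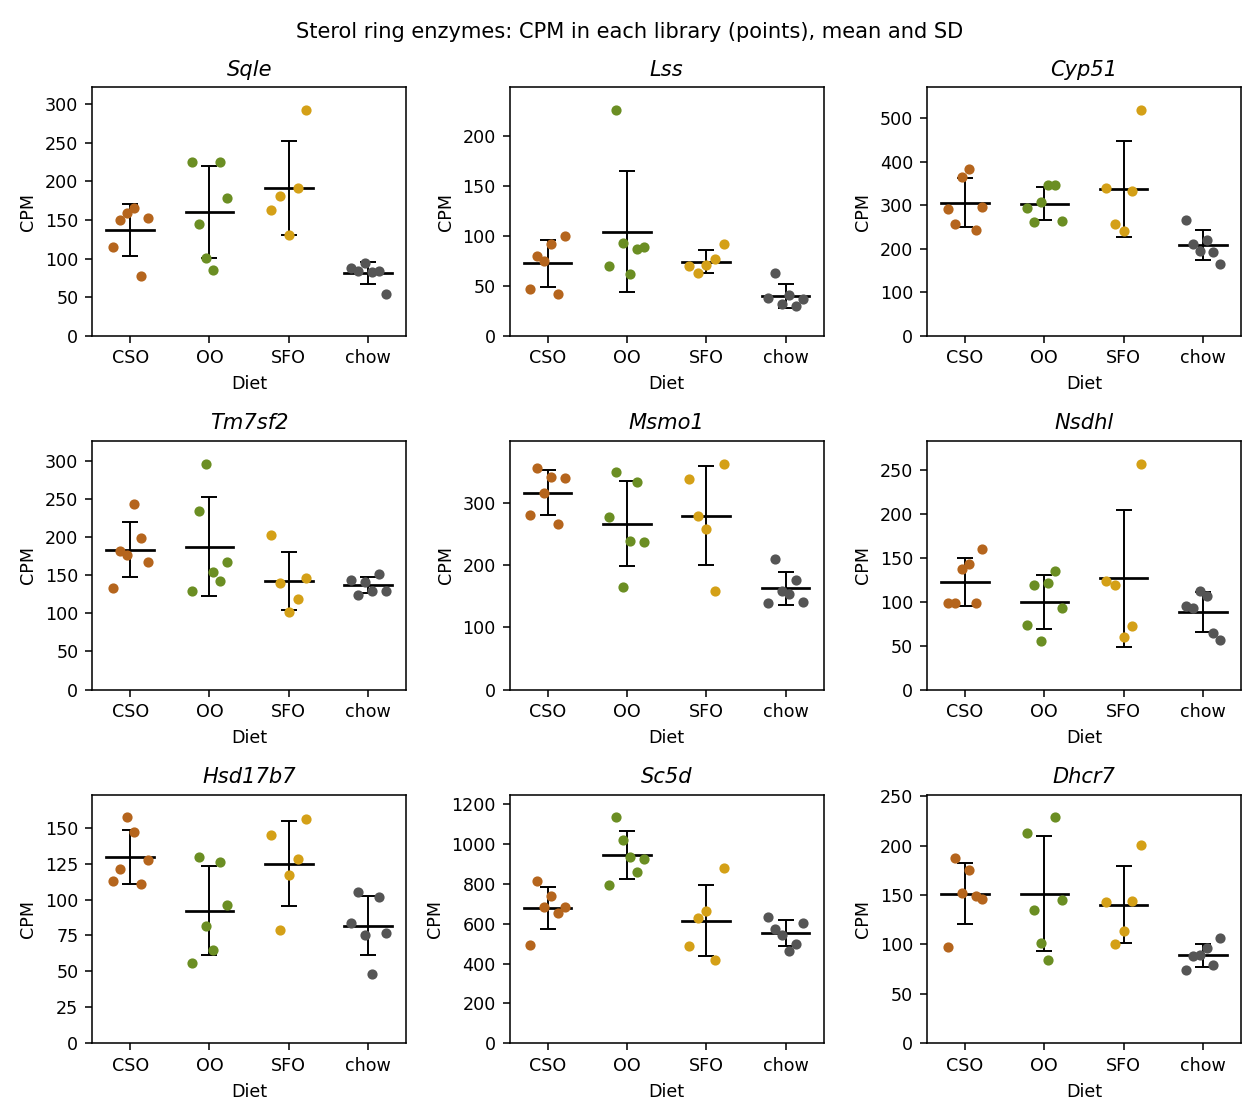
CPM of each of the 9 enzymes (a panel each, vertical axis from 0) in every library (points), by diet, with the mean (bar) and SD. Msmo1 and Hsd17b7 do not overlap between CSO and chow, Sc5d does not overlap between OO and chow, and Sqle does not overlap between SFO and chow.

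Between the oil diets, Sc5d was the 1 enzyme of the 9 that passed the threshold, and it did so between SFO and OO. Against OO, SFO livers had less Sc5d, with 617 ± 178 CPM in SFO and 947 ± 120.0 CPM in OO livers (SD, n = 5 and 6; log2FC -0.62 ± 0.15 SE, edgeR adjusted p = 0.0277), and all 5 SFO livers were below the OO mean. This was 1 of 9 enzymes, where 0.794% of all tested genes were lower in SFO than in OO. The call was lost without OO replicate 2 or SFO replicate 1, 2 or 5 (highest adjusted p = 0.0992). It was also lost without the libraries with muscle RNA (log2FC -0.61, adjusted p = 0.0557), in a fit of these 2 diets alone (-0.60, adjusted p = 0.244), and with library totals in place of TMM (-0.49, adjusted p = 0.0800). Library totals also turned the split of all called genes to 33 higher and 23 lower in SFO than in OO, against 32 and 95 with TMM. In CSO against OO, 0 of 9 enzymes passed, where 1.09% of all tested genes did, and 2 of 9 had an unadjusted p under 0.05, 1 higher and 1 lower, where 5.70% and 9.04% of all tested genes did. These were Sc5d, at 678 ± 106 CPM in CSO and 947 ± 120.0 CPM in OO livers (log2FC -0.48 ± 0.14 SE, edgeR adjusted p = 0.0699), and Hsd17b7 (0.49 ± 0.22, adjusted p = 0.278). In CSO against SFO, 0 of 9 passed, where 0.493% of all tested genes did, and 1 of 9, Sqle, was lower at an unadjusted p under 0.05, where 4.09% of all tested genes were (log2FC -0.49 ± 0.23 SE, edgeR adjusted p = 0.619). DESeq2's Wald test called 0 of the 9 in CSO against OO and 0 in CSO against SFO. The other 8 enzymes had log2FC between -0.49 and 0.44 in SFO over OO, and the 9 had -0.53 to 0.49 in CSO over OO and -0.49 to 0.37 in CSO over SFO, with standard errors between 0.14 and 0.29. A p that misses the threshold does not show that the oils act alike on these genes.

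The authors' deposited table for CSO against chow called 2 of the 9, Msmo1 and Dhcr7, at an adjusted p under 0.05. The authors' deposited table for OO called 6 (Sqle, Lss, Cyp51, Msmo1, Sc5d and Dhcr7), and the authors' deposited table for SFO called 3 (Sqle, Cyp51 and Msmo1). All 27 log2 fold changes in the authors' deposited tables, with the sign turned to oil over chow, had the sign found here. Both rest on the same samples, so the shared signs are no independent evidence.

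The steps before squalene were set beside these enzymes. Of the 9 tested genes of the mevalonate pathway, 0 rose in CSO, 3 in OO and 2 in SFO, and 0 fell in any of them, beside 0.209%, 1.72% and 0.493% of all tested genes that rose. The list had median log2FC of 0.63, 0.85 and 0.78 over chow. Of the well expressed genes 1.08%, 7.44% and 2.06% rose in CSO, OO and SFO. Hmgcs1, the synthase that makes HMG-CoA, rose in OO (log2FC 1.07 ± 0.21 SE, edgeR adjusted p = 0.00756) and in SFO (0.92 ± 0.22, adjusted p = 0.0417). Fdft1, squalene synthase, which feeds Sqle, also rose in OO (0.96 ± 0.23, adjusted p = 0.0154) and SFO (0.96 ± 0.24, adjusted p = 0.0288). Fdps, farnesyl diphosphate synthase, rose in OO (0.84 ± 0.22, adjusted p = 0.0334). In CSO, Fdft1 had 0.85 ± 0.23 (adjusted p = 0.0932). Idi1 and Idi2, the isomerases of this pathway, have no row and were not analysed here.

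Of 4 other tested genes of the ring steps, 1 rose in OO and 0 in CSO and SFO, and 0 fell. Of all tested genes 1.72% rose in OO, and of the well expressed ones 7.44%. The 4 genes had a median log2FC of 0.24 in CSO, -0.03 in OO and 0.17 in SFO. A positive log2FC was found for 3 genes in CSO, 2 in OO and 4 in SFO, beside 48.0%, 54.4% and 51.1% of all tested genes. At an unadjusted p under 0.05, 2 were higher and 1 lower in OO, beside 9.68% and 6.44% of all tested genes. In CSO 2 were higher, beside 2.98%, and in SFO 0. Of the well expressed genes 8.92% were higher in CSO and 27.1% in OO. Ebp, an isomerase that acts before Sc5d, was the one that rose in OO (0.49 ± 0.14 SE, edgeR adjusted p = 0.0434). Ebp had 0.32 ± 0.14 in CSO (adjusted p = 0.788) and 0.17 ± 0.15 in SFO (adjusted p = 0.915).

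Of 10 tested genes of SREBP control and sterol uptake, 0 passed in any oil diet against chow. Of all tested genes 0.409%, 2.64% and 0.835% passed in CSO, OO and SFO, in either direction. The median log2FC of the list was 0.18, 0.46 and 0.23. Its log2FC was positive for 7 of 10 genes in CSO, 10 in OO and 9 in SFO, beside 48.0%, 54.4% and 51.1% of all tested genes. Of the well expressed genes it was positive for 55.3%, 73.4% and 53.2%. At an unadjusted p under 0.05, 4 of the 10 were higher in OO, beside 9.68% of all tested genes and 27.1% of the well expressed ones. Those of the 10 with the smallest p-values included Insig2, which holds SREBP in the membrane. Insig2 stood at 129 ± 33.6 CPM in CSO, 352 ± 116 CPM in OO, 305 ± 122 CPM in SFO and 229 ± 58.7 CPM in chow livers (SD, n = 6, 6, 5 and 6). Its log2FC in CSO over chow was -0.82 ± 0.22 (SE, edgeR adjusted p = 0.117). Between oils Insig2 was lower in CSO than in OO (-1.45 ± 0.23, adjusted p = 0.000308) and than in SFO (-1.24 ± 0.23, adjusted p = 0.00357). Among 12 genes of sterol export, esterification and conversion to bile acids, Abca1, an exporter of cholesterol, rose in OO (0.66 ± 0.15, adjusted p = 0.00971), and no other passed in any oil diet against chow. That is 1 of 12 in OO, where 1.72% of all tested genes and 7.44% of the well expressed ones rose.

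Cyp51 and Sqle take their electrons from the P450 reductase Por, and Msmo1 and Sc5d take theirs by way of cytochrome b5. Of 4 tested genes of electron supply (Por, Cyb5a, Cyb5b and Cyb5r3), 1 rose in CSO, 1 in OO and 0 in SFO over chow, beside 0.209%, 1.72% and 0.493% of all tested genes, and 0 fell. Their median log2FC was 0.19 in CSO, 0.26 in OO and -0.16 in SFO. Of the well expressed genes 1.08%, 7.44% and 2.06% rose in CSO, OO and SFO. Por rose in CSO (0.77 ± 0.19 SE, edgeR adjusted p = 0.0428), whereas it had -0.51 ± 0.19 in OO (adjusted p = 0.123) and -0.28 ± 0.19 in SFO (adjusted p = 0.845). The difference between oils was itself past the threshold, with Por higher in CSO than in OO (1.28 ± 0.19, adjusted p = 5.69e-05) and than in SFO (1.06 ± 0.20, adjusted p = 0.00226). Cyb5b, the cytochrome b5 of the outer mitochondrial membrane, rose in OO over chow (0.61 ± 0.15, adjusted p = 0.0158), and was lower in CSO than in OO (-0.76 ± 0.15, adjusted p = 0.00262) and in SFO than in OO (-0.87 ± 0.15, adjusted p = 0.0032).

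**Figure D4:**
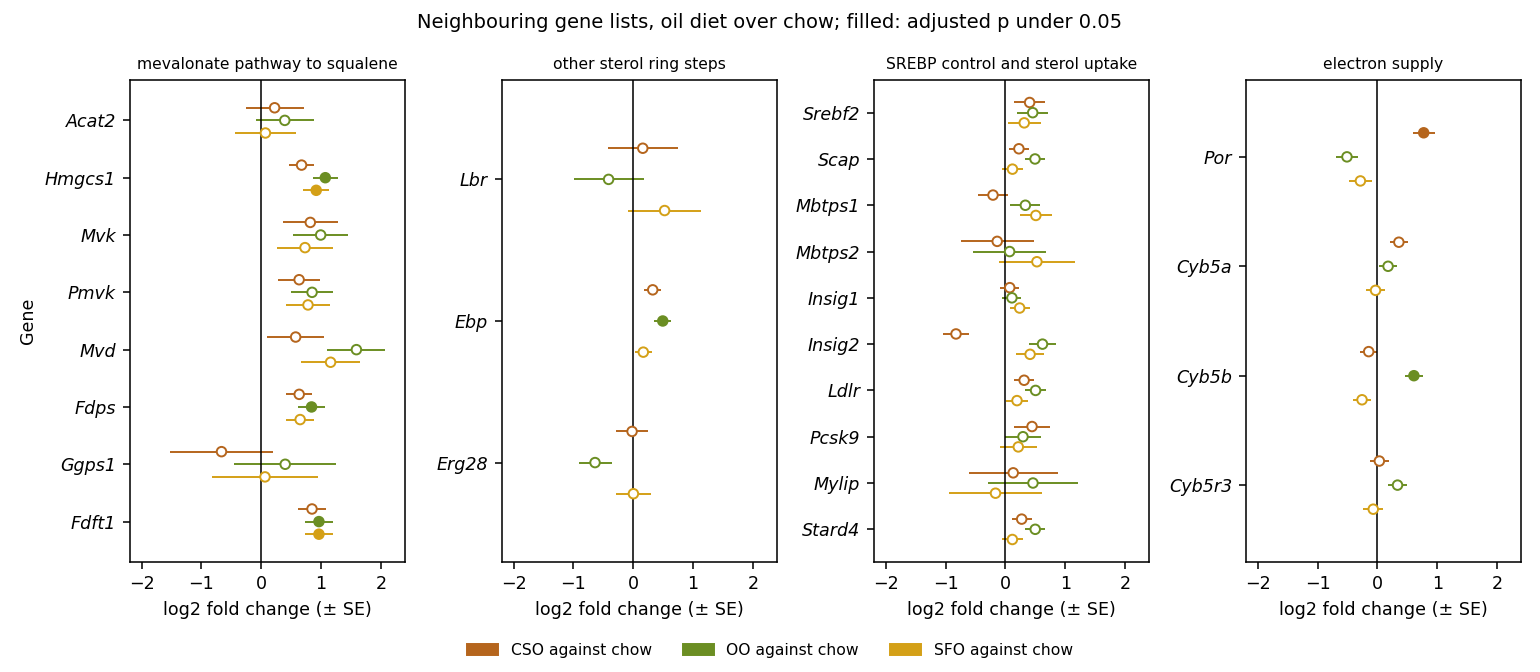
Log2 fold change over chow with its standard error (horizontal axis) for CSO, OO and SFO of tested genes (vertical axis) of the mevalonate pathway, the other ring steps, SREBP control and sterol uptake, and P450 electron supply (a panel each). Filled points have an adjusted p under 0.05: Hmgcs1 and Fdft1 in OO and SFO, Fdps, Ebp and Cyb5b in OO, and Por in CSO.

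The levels of the enzymes were also compared across livers within a diet. Log2 CPM was taken as the deviation from the diet mean in 23 libraries, and 34 of the 36 pairs had a positive Pearson's r, with a median of 0.288 and a range of -0.157 to 0.673. After Benjamini-Hochberg adjustment over the 36 pairs 0 passed 0.05, and at an unadjusted permutation p under 0.05 there were 7 by Pearson's r and 8 by Spearman's rho. The highest was that of Sqle with Dhcr7, near the start and at the end of the sequence, with r = 0.67 (permutation p = 0.00553, adjusted p = 0.0986) and rho = 0.63 (p = 0.00727, adjusted p = 0.124). Without the 2 libraries farthest from the median of Sqle it was 0.67. Cyp51 with Nsdhl had r = 0.65 (permutation p = 0.00663, adjusted p = 0.0986) and rho = 0.55 (p = 0.0138, adjusted p = 0.124), and r fell to 0.39 without the 2 farthest libraries. Tm7sf2 stood lowest, with r between -0.157 and 0.314 to the other 8 enzymes. All genes of a library share its depth and scaling. The share of positive r among other gene pairs is not given here.

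**Figure D5:**
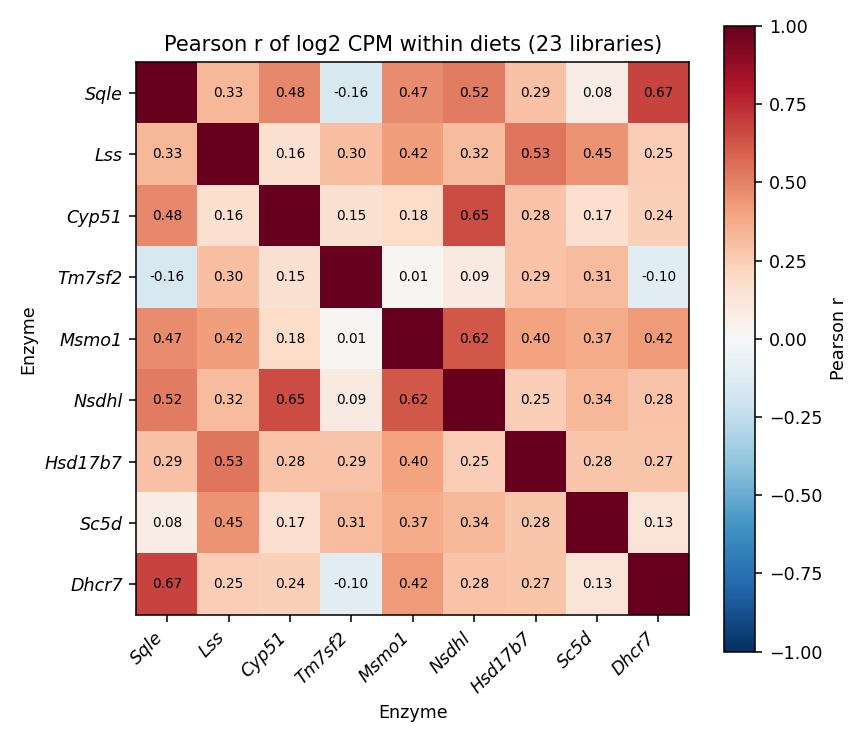
Pearson's r of log2 CPM between each pair of the 9 enzymes, over 23 libraries after the diet mean was taken away; both axes list the enzymes in pathway order and the colour scale runs between -1 and 1. The highest r is 0.67, for Sqle with Dhcr7, and the row of Tm7sf2 holds the lowest values.

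Each enzyme was also set against the mean of the other 8. Msmo1 followed that mean most closely, with r = 0.63, and Nsdhl (0.61), Sqle (0.57), Lss (0.55), Hsd17b7 (0.52), Cyp51 (0.49), Dhcr7 (0.45), Sc5d (0.42) and Tm7sf2 (0.16) came after it. Among 5741 other genes whose mean log2 CPM reached 4, those with the highest r to the mean of the 9 enzymes over the 23 libraries were Acss2 (0.84), Hmgcs1 (0.84), Rdh11 (0.79), Fdps (0.78) and Thrsp (0.72). Acap2 (0.68), Acly (0.68), Zfp219 (0.67), Btbd1 (0.66) and Fasn (0.66) came next. Hmgcs1 and Fdps are the mevalonate pathway genes named above, and the list was picked as the highest of many and carries no test.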

How the data were processed

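Per the labels' protocols, libraries were made from total liver RNA (RIN over 7.0) with the QuantSeq 3′ kit. Per the submitters' processing notes, Trimmomatic, STAR 2.7.1a, HTSeq 0.9.1, DESeq2 and DESeq were used with mm39. The authors deposited raw counts per gene for 23 libraries of the 24 samples, and 3 tables of chow over 1 oil diet. Per the file headers, these tables hold the mean signal (normalised counts), p-values, a score that is the Wald statistic, and a log2 fold change with its standard error. Their sign was turned here to oil over chow. The smallest gene total in the count table is 51.

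Counts were tested with edgeR 4.0.16 in R 4.3.3: filterByExpr (11971 genes, 99.9% of counts), TMM, the 4 diets fitted together, robust quasi-likelihood F tests, and Benjamini-Hochberg adjustment over all tested genes. CPM uses TMM library sizes, and log2 CPM adds a prior count of 2. Correlations used 100000 permutations (scipy 1.17.1), and the smallest p they can give is 1e-05. DESeq2 1.42.0 was an alternative, beside other scaling, no filter, only the diets compared, a replicate block, the libraries with high Acta1 left out, the clock score as a covariate and each library left out. The procedure was tested on simulated data. Of 100 genes changed 2-fold, it called 12, 13 and 13 in CSO, OO and SFO against chow. Among those whose mean log2 CPM reached 6, it called 10 of 15, 10 of 14 and 8 of 13. All 9 enzymes are named in every comparison with chow. From each other list, up to 4 called genes of smallest adjusted p are named, or up to 2 of smallest p where none passed, and Insig2, Por and Cyb5b between oils were chosen after their values were seen. Not every gene picked this way is given here, or drawn in the plot of neighbouring lists. The 9 enzymes, the lists and the settings were chosen with earlier results of these data known. The annotation used for overlaps (GENCODE M21) and promoters is of GRCm38, another build than that of the counts, and was matched by symbol.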

Additional observations from a re-analysis of the deposited data

Results flagged for a closer look

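A single library stood apart from its group for 3 of 40 combinations of gene or sum and diet, where chance flags about 1 in 20. Lss was high in OO replicate 2, at 226 CPM against 61.4 to 93.0 CPM in the other 5 OO livers. Lss was also high in chow replicate 2, at 63.2 CPM against 29.4 to 41.2 CPM in the other 5 chow livers. Sqle was low in chow replicate 6, at 54.2 CPM against 82.5 to 95.0 CPM in the other 5 chow livers. Without these libraries, 1 at a time, the rises of Lss in OO and of Sqle in OO and SFO still passed.

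A difference between 2 oil diets was itself past the threshold for Sc5d, which was lower in SFO than in OO (log2FC -0.62, edgeR adjusted p = 0.0277).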

How the results depend on the processing

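The numbers of enzymes called were unchanged by DESeq2's size factors, by dropping the filter on low counts, and, outside OO against chow, by the replicate block. In CSO against chow 1 enzyme became 4 with DESeq2's Wald test, 6 in a fit of the 2 diets alone, and 0 without the 4 libraries high in Acta1 and 0 with the clock score as a covariate. In OO against chow 5 became 6 with DESeq2's Wald test, which added Cyp51 (adjusted p = 0.0431), 3 with library totals in place of TMM, 3 with the 2 diets alone and 0 without the libraries high in Acta1. In SFO against chow 3 became 2 with library totals and 1 without the libraries high in Acta1. In SFO against OO 1 became 0 with library totals, 0 with the 2 diets alone and 0 without the libraries high in Acta1. With 1 library left out at a time, 1 enzyme was called in CSO against chow each time, and 4 to 6 were in OO, 1 to 3 in SFO, and 0 to 1 in SFO against OO. The counts for SFO fell to 1 without chow replicate 6, SFO replicate 1 or SFO replicate 6.

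Over all tested genes, DESeq2's Wald test gave 111 (CSO), 689 (OO) and 185 (SFO) called genes against chow, 414 in CSO against OO, 140 in CSO against SFO and 441 in SFO against OO. These stand beside 49, 316, 100, 130, 59 and 127. The diets of the comparison alone gave 198 in CSO and 122 in OO against chow, 79 in CSO against OO, 91 in CSO against SFO and 2 in SFO against OO. Leaving out the libraries high in Acta1 gave 14, 26 and 34 in CSO, OO and SFO against chow, 40 in CSO against OO, 39 in CSO against SFO and 37 in SFO against OO. The clock score as a covariate gave 23 in CSO against chow, 41 in CSO against OO and 27 in CSO against SFO. Library totals gave 83 in CSO against OO, with 49 higher and 34 lower beside 30 and 100, and 56 in SFO against OO. Leaving out 1 library gave 22 to 45, 145 to 471 and 59 to 87 in CSO, OO and SFO against chow, 62 to 260 in CSO against OO, 30 to 77 in CSO against SFO and 31 to 240 in SFO against OO.

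Same-numbered libraries of different diets did not deviate together (r between -0.101 and 0.0346, and 1 of 23 libraries correlated best with its own number). The labels do not say whether the numbers pair samples, and a lack of correlation cannot settle it. The replicate block gave 208 called genes in OO against chow and 77 in SFO against OO, took the call of Dhcr7 in OO (4 enzymes left), and turned Dhcr7 in CSO over OO to 0.033.

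Signs turned only for differences that passed under none of the settings. Against chow these were Tm7sf2 in SFO, with -0.010 under library totals and -0.11 to 0.15 with 1 library left out, and Sc5d in SFO, with -0.0077 to 0.27. In CSO over OO, Dhcr7 (-0.00094 in the fit reported) had 0.0020 with DESeq2's size factors, 0.13 with library totals, 0.0020 with the Wald test, 0.0027 with the 2 diets alone, 0.096 without the libraries high in Acta1, 0.020 with the clock score and -0.12 to 0.15 with 1 library left out. Tm7sf2 had 0.15 with library totals, 0.043 without the libraries high in Acta1 and -0.13 to 0.15 with 1 library left out, and Cyp51 -0.065 to 0.067. In CSO over SFO, Nsdhl had 0.0043 with library totals, 0.0015 without the libraries high in Acta1, 0.016 with the clock score and -0.22 to 0.39 with 1 library left out. Lss had 0.050 without the libraries high in Acta1 and -0.15 to 0.082 with 1 library left out. With the clock score, Cyp51 had 0.048, Msmo1 -0.0024 and Hsd17b7 -0.041. With 1 library left out, Cyp51 had -0.24 to 0.066, Hsd17b7 -0.087 to 0.14 and Dhcr7 -0.00018 to 0.27. In SFO over OO the same gave -0.056 to 0.25 for Cyp51, -0.046 to 0.21 for Msmo1, -0.087 to 0.52 for Nsdhl and -0.27 to 0.046 for Dhcr7. The number of correlated pairs called was 0, and also 0 with DESeq2's size factors, with library totals, with a prior count of 0.5 and without the libraries high in Acta1, the 4 settings run for it. The smallest count of any of the 9 enzymes in a library was 242, so counting error is small beside the spread between livers. The causes of these changes were not tested.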

Other observations

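The mean log2 CPM of the 9 enzymes, as the deviation from the diet mean, was set against 4 measures of the 23 libraries. With log10 total counts, Pearson's r was -0.46 (permutation p = 0.0307, adjusted p = 0.123) and Spearman's rho -0.45 (permutation p = 0.0458, adjusted p = 0.183), and r was -0.30 without the 2 libraries farthest from the median depth. With the clock score, r was 0.15 (permutation p = 0.595, adjusted p = 1) and rho 0.14 (p = 0.543, adjusted p = 0.724). None of the 4 measures, the TMM factor and Acta1 included, passed after adjustment.

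Adipocyte markers, with 3 of 5 genes in the table, summed to 40.5 to 215 CPM in CSO, 2.12 to 97.5 CPM in OO, 3.64 to 31.3 CPM in SFO and 3.66 to 84.2 CPM in chow livers. Adipoq and Plin1 have no row, and Lep was at 0 in CSO, OO and SFO. Markers of Kupffer cells (10 of 10 genes) summed to 85.3 to 212 CPM in CSO, 107 to 376 CPM in OO, 119 to 310.5 CPM in SFO and 109.9 to 313 CPM in chow livers. Endothelial markers (8 of 8 genes) summed to 122 to 282 CPM in CSO, 117 to 396 CPM in OO, 164 to 334 CPM in SFO and 240.1 to 305 CPM in chow livers. The part of these cells in the levels of the 9 enzymes was not tested.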
